A study of Mus musculus with 18 samples.

Results

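The genes described here are 10 genes of the unfolded protein and amino acid stress responses (Chac1, Ddit3, Atf4, Trib3, Asns, Ddit4, Sesn2, Xbp1, Hspa5 and Herpud1). They were chosen by name from 26165 genes in the count table of bone marrow-derived macrophages (BMDM) and 26149 genes in that of skin wound macrophages. No threshold on a measured value was used, but they and the related gene lists were chosen with earlier results of these data known. All 10 were found in both tables. The study compared mice carrying the T166A form of PPARg, a lipid-sensing nuclear receptor, with wild-type (WT) mice, named as C57BL/6J for the BMDM. For BMDM, marrow of T166A or WT mice was cultured for 7 days with 50 ng/ml of the growth factor M-CSF, and 3 libraries were made per genotype, replicates 1 and 2 in batch B1 and replicate 3 in batch B2. For the wound macrophages, injured dorsal skin of T166A or WT mice was digested with enzymes at day 6 after injury, the cells held by beads against the macrophage protein F4/80 were taken, and 6 libraries were made per genotype, without a batch label. How the T166A allele was made, the ages of the mice and the number of mice per library are not stated in the sources used here.

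The endoplasmic reticulum folds secreted and membrane proteins, and unfolded protein there activates the sensors PERK, IRE1 and ATF6. IRE1 splices the Xbp1 transcript and ATF6 is cut into a transcription factor, and both raise chaperone and degradation genes. PERK and the amino acid sensor GCN2 both phosphorylate the initiation factor eIF2, which lowers general translation, raises translation of the Atf4 transcript, and so raises amino acid and stress genes that ATF4 and its partner CHOP control. In macrophages these arms serve secretion and meet the demands of engulfed material and inflammation.

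The BMDM libraries held 40072513 to 44152639 counts and the skin libraries 29357354 to 38774475. Levels are CPM, a gene's counts per 1000000 of the library size after TMM scaling, with mean ± SD over 3 libraries per genotype in BMDM and 6 in skin. Log2 changes are log2 fold changes of T166A over WT, each beside its standard error (SE). A gene passed at an adjusted p under 0.05 by the quasi-likelihood test of edgeR, adjusted over all genes tested by the Benjamini-Hochberg method. Separate cultures or animals are not clearly named for the replicates, so the p-values stand for the spread between these libraries, which may be technical. The labels name macrophages, but their protocol for extraction names adipocytes. In BMDM, 8 of 12 adipocyte markers, among them Adipoq and Plin1, were listed at 0, and Lyz2 led 10 macrophage markers that summed to 32533 to 48568 CPM. In skin the same macrophage markers summed to 12139 to 17224 CPM, beside fibroblast markers at 6586 to 11891 CPM, so the skin fraction also held RNA of other cells. In such bulk libraries, fewer cells of a type and less RNA per cell cannot be told apart.

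Promoter letters were read because the members belong to arms with known response elements. The 250 bases before the start of the 4 members with a match there are shown 5′ to 3′ on the gene's strand, from RefSeq on GRCm38.p6, with the matched motif in capitals. They are Chac1 (chr2:119350992-119351241, plus strand), Asns (chr6:7693210-7693459, minus strand), Hspa5 (chr2:34771840-34772089, plus strand) and Herpud1 (chr8:94386179-94386428, plus strand).
Chac1: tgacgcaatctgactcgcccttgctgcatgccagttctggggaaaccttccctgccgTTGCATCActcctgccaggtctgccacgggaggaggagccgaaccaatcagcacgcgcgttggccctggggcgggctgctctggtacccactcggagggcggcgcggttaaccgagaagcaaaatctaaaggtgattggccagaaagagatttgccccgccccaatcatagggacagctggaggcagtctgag
Asns: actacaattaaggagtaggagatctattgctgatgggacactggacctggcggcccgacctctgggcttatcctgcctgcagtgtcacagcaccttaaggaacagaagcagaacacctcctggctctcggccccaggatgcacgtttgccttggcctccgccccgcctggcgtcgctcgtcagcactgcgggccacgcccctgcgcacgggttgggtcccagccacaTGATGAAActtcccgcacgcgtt
Hspa5: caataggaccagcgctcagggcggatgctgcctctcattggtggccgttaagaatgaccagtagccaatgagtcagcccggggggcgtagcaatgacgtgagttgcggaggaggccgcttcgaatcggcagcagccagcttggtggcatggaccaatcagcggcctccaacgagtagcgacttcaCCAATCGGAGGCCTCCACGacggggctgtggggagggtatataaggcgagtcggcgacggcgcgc
Herpud1: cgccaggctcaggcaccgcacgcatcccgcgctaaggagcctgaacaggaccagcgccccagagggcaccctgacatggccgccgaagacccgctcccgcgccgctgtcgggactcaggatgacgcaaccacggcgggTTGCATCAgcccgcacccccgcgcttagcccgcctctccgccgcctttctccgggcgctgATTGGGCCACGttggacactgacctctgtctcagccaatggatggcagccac

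The searched windows ran from 250 bases before to 50 bases after each start, on both strands, in 32851 windows of 300 bases. The core of the amino acid response element bound by ATF4 and its C/EBP partners, TGATGNAA, was in 4 of 10 members and in 3.97% of all windows. It began 23 bases before the start of Asns on the gene's strand, and 193 and 112 bases before Chac1 and Herpud1 on the opposite strand. The fourth match, in Trib3, lay 15 bases after its start on the opposite strand. The endoplasmic reticulum stress element, CCAAT followed after 9 unspecified bases by CCACG and bound by ATF6 with the factor NF-Y, was in Hspa5 alone among the members, 65 bases before the start, and in 0.119% of windows. Its shorter form, ATTGG followed after 1 unspecified base by CCACG, was in Herpud1 alone among the members, 52 bases before the start and apart from the first match, and in 0.0365% of windows. The core TGACGTGG of the unfolded protein response element was in 0.676% of windows and in 0 of the 10 members. These are matches of letters in a short window, with no measure of binding.

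Per transcript length, the members ranged from an abundant chaperone to rare regulators. Levels per length (counts per kilobase, scaled to 1000000 in each library) were highest for Hspa5 in every group, at 1697 ± 78.1 in T166A and 1873 ± 155 in WT skin. Atf4 followed at 412 ± 12.7 in T166A and 463 ± 27.1 in WT skin, and Ddit4 at 370 ± 63.5 in T166A and 310 ± 26.9 in WT skin. Xbp1 and Herpud1 came next in both genotypes, and in BMDM the order began with Hspa5, Xbp1, Atf4, Ddit3 and Herpud1 and ended with Chac1 in both genotypes. Below them the order differed by genotype: T166A skin had Asns at 44.8 ± 4.2, Ddit3 at 43.5 ± 8.2, Chac1 at 19.9 ± 2.83, Sesn2 at 18.2 ± 1.76 and Trib3 at 16 ± 2.71, whereas WT skin had Ddit3 at 46.2 ± 2.93, Asns at 28.3 ± 3.62, Sesn2 at 12.9 ± 1.8, Chac1 at 9.27 ± 0.955 and Trib3 at 8.02 ± 1.73. Neighbours whose libraries overlapped on this scale were Atf4 and Ddit4, Asns and Ddit3, and Chac1, Sesn2 and Trib3 in T166A skin, and Chac1 and Trib3 in WT skin. In BMDM, Ddit3 and Herpud1 overlapped in both genotypes, at 41.3 to 57 and 40.2 to 52.4 in T166A and at 46.6 to 58.6 and 39 to 53.1 in WT libraries.

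In wound macrophages the members did not move as a group. Targets of ATF4 that serve glutathione breakdown, signalling and amino acid supply (Chac1, Trib3, Asns and Sesn2) rose in T166A libraries by 1.31 to 1.99 times, while the Atf4 transcript itself and the chaperone Hspa5 fell to 0.827 and 0.843 of WT. Of 10 members tested in skin, 6 passed, 4 higher and 2 lower, beside 25.9% of all genes tested (12.7% higher and 13.2% lower). Because the members were chosen with earlier results known, such shares describe them and are no test of the set. Without TMM scaling, an alternative chosen after seeing the data, 3357 genes were higher and 1308 lower, beside 1963 and 2048 with it, and the median log2 fold change of all genes was 0.0962 instead of 0.00998. The scaling factors were 1.016 to 1.048 in T166A and 0.9459 to 1.001 in WT skin libraries. All 6 calls and their directions also held without scaling.

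**Figure D1:**
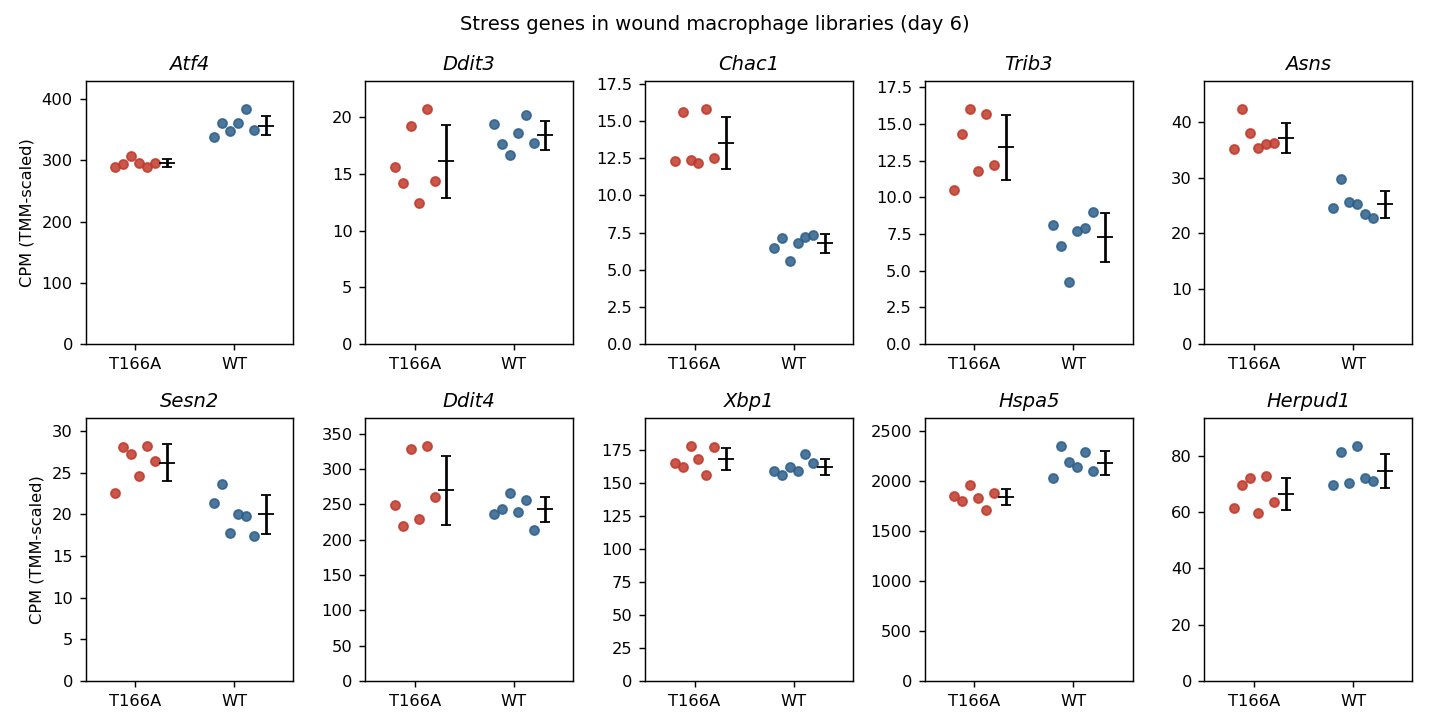
Level of each of the 10 genes (y axis, TMM-scaled CPM from 0) in 6 T166A (red, left) and 6 WT (blue, right) skin libraries; each point is a library, and the black mark and bar are the mean and SD. Chac1, Trib3 and Asns stand wholly above WT in T166A libraries, Atf4 and Hspa5 wholly below, and the other 5 genes overlap.

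Every T166A library lay above every WT library for Chac1, Trib3 and Asns and below for Atf4 and Hspa5, so that 5 of 10 members did not overlap, beside 12.1% of all genes tested (3 above, beside 5.43%, and 2 below, beside 6.63%). Atf4 (chromosome 15, 80255184 to 80257545, plus strand), the transcription factor of the integrated stress response, had a lowest, median and highest level of 289, 294 and 307 CPM in T166A libraries, against 337, 355 and 383 CPM in WT libraries. The fall was small and even, with less spread in T166A (295 ± 6.63 CPM) than in WT (356 ± 15.8 CPM) libraries (log2 change -0.27, SE 0.04, edgeR adjusted p = 8.01e-05). Counts of the transcript do not measure ATF4 translation. Ddit3 (chromosome 10, 127290793 to 127296291, plus strand) encodes CHOP, a factor that ATF4 induces and that can promote cell death. It had 12.4, 15 and 20.7 CPM in T166A and 16.7, 18.2 and 20.2 CPM in WT libraries. The T166A libraries spread around the WT range on both sides, and the difference did not pass (log2 change -0.19, SE 0.10, edgeR adjusted p = 0.189). Ddit3 overlaps Mars, the methionyl-tRNA synthetase gene on the opposite strand, by 68 bases, and the strand setting of the counting is not stated in the sources used here.

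Chac1 (chromosome 2, 119351242 to 119354326, plus strand), which encodes an enzyme that breaks down glutathione, had the largest change among the members. Its lowest, median and highest levels were 12.2, 12.4 and 15.8 CPM in T166A and 5.62, 6.98 and 7.34 CPM in WT libraries. The lowest T166A library stood above the highest WT library by a wide gap (log2 change 0.99, SE 0.10, edgeR adjusted p = 2.31e-07), and 1.6% of tested genes had a higher log2 fold change. Trib3 (chromosome 2, 152337425 to 152344060, minus strand), a pseudokinase that binds AKT and ATF4 and is induced by both ATF4 and CHOP, had 10.5, 13.3 and 16 CPM in T166A and 4.26, 7.79 and 8.98 CPM in WT libraries. It rose 1.84-fold without overlap (log2 change 0.88, SE 0.15, edgeR adjusted p = 0.000198). Asns (chromosome 6, 7675165 to 7693209, minus strand), asparagine synthetase, had 35.2, 36.1 and 42.3 CPM in T166A and 22.7, 25 and 29.7 CPM in WT libraries. The rise was 1.47-fold with no overlap (log2 change 0.56, SE 0.07, edgeR adjusted p = 3.57e-06).

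Sesn2 (chromosome 4, 132492804 to 132510456, minus strand) encodes sestrin 2, a leucine sensor that restrains mTORC1. It had 22.5, 26.8 and 28.2 CPM in T166A and 17.4, 19.9 and 23.6 CPM in WT libraries, and the ranges overlapped at the lowest T166A library. The rise of 1.31 times passed (log2 change 0.39, SE 0.08, edgeR adjusted p = 0.000901). Ddit4 (chromosome 10, 59949675 to 59951770, minus strand) encodes REDD1, another brake on mTORC1 that hypoxia and glucocorticoids also induce. It had 219, 254 and 333 CPM in T166A and 214, 242 and 266 CPM in WT libraries. T166A replicates 3 and 5 lay above all others, while the remaining T166A libraries lay within the WT range (log2 change 0.15, SE 0.10, edgeR adjusted p = 0.32). Sesn2 overlaps the annotated noncoding gene Gm12981 over 6089 bases.

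In the arm of XBP1 and ATF6, Hspa5 (chromosome 2, 34772090 to 34776529, plus strand), the chaperone BiP that holds the sensors inactive, had a lowest, median and highest level of 1712, 1841 and 1963 CPM in T166A and 2028, 2167 and 2351 CPM in WT libraries. It fell without overlap (log2 change -0.25, SE 0.05, edgeR adjusted p = 0.00101), although the gap between the nearest libraries was narrow. Herpud1 (chromosome 8, 94386429 to 94395371, plus strand), a membrane protein of the degradation machinery, had 59.7, 66.6 and 72.6 CPM in T166A and 69.6, 71.4 and 83.4 CPM in WT libraries. Its libraries overlapped and it did not pass (log2 change -0.17, SE 0.06, edgeR adjusted p = 0.0598). It overlaps the antisense gene Gm15890 by 535 bases. Xbp1 (chromosome 11, 5520641 to 5525993, plus strand), the factor activated by splicing, had 156, 167 and 178 CPM in T166A and 156, 161 and 172 CPM in WT libraries. The ranges nearly coincided (log2 change 0.05, SE 0.05, edgeR adjusted p = 0.502). Without TMM scaling it passed as higher at a log2 fold change of 0.13 (edgeR adjusted p = 0.0341). The rows of its 2 RefSeq transcripts held identical counts, so splicing could not be read.

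Markers of other cells and of tissue handling also differed between the genotypes in skin. Adipocyte markers were higher in T166A for 10 of 11 tested, with a mean log2 CPM of 2.56 to 3.52 in T166A and 0.82 to 1.75 in WT libraries, and their summed level, mostly Fabp4, was 521 to 826 CPM in T166A and 482 to 681 CPM in WT libraries. Macrophage markers were lower for 7 of 10, summing to 12139 to 13906 CPM in T166A and 14246 to 17224 CPM in WT libraries. Genes known to respond to tissue digestion were lower for 9 of 10, at 5087 to 6030 CPM in T166A and 6893 to 8022 CPM in WT libraries, and skeletal muscle markers were lower for 7 of 8, at 26.5 to 37.4 CPM in T166A and 57.1 to 86.9 CPM in WT libraries. Endothelial markers were higher for 6 of 8, at 1542 to 2274 CPM in T166A and 1182 to 1669 CPM in WT libraries. The mean log2 levels of the adipocyte, macrophage, digestion and muscle lists did not overlap between genotypes, so each of them and the genotype cannot be told apart. With the adipocyte score in the model 0 of 10 members passed, beside 4.07% of all genes tested, with the digestion score 1 (Chac1), beside 6.5%, and with the macrophage score 4, beside 5.86%. Calls were thus fewer over all genes too, against 25.9% without a score. The median SE over the members was then 0.24, 0.18 and 0.12, against 0.08 without a score, and the log2 fold change of Chac1 was 0.87, 1.11 and 0.84 (0.99 without). That of Trib3 was 0.39, 0.93 and 1.07 (0.88 without), that of Asns 0.59, 0.47 and 0.32 (0.56 without), and that of Sesn2 0.38, 0.29 and 0.23 (0.39 without). With keratinocyte and fibroblast scores, whose ranges overlapped between genotypes, 8 passed, beside 29.2% of all genes, Ddit3 (edgeR adjusted p = 0.0417) and Herpud1 (edgeR adjusted p = 0.0101) being added as lower.

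Of the lists around the members, that of tRNA synthetases moved most in one direction. Over all genes tested in skin, 12.7% passed as higher and 13.2% as lower, shares that stand beside the counts of each list below. Cytosolic aminoacyl-tRNA synthetases, which charge tRNAs with amino acids and include known ATF4 targets, were higher in T166A skin for 15 of 20 genes and lower for 1, with a median log2 fold change of 0.25 beside 0.01 over all genes tested. Gars, for glycine, averaged 79.7 ± 5.92 CPM in T166A and 57 ± 5.59 CPM in WT libraries (log2 change 0.48, SE 0.07, edgeR adjusted p = 9.56e-06). Tars, for threonine, averaged 66.4 ± 3.35 CPM in T166A and 50.7 ± 3.06 CPM in WT libraries (log2 change 0.39, SE 0.06, edgeR adjusted p = 1.65e-05). Rars, for arginine, named because it was the single member that fell, averaged 114 ± 3.82 CPM in T166A and 132 ± 2.72 CPM in WT libraries. The count was 16 higher and 1 lower without scaling, and 0, 1 and 1 were higher with the adipocyte, digestion and macrophage scores in the model. The median log2 fold change was then 0.24, 0.22 and 0.11, with 16 of 20 genes above 0 in each of these fits, against 17 without a score.

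Genes of amino acid synthesis and transport were higher for 7 of 19 and lower for 2, with a median log2 fold change of 0.26. Slc7a5, the light chain of the LAT1 exchanger for large neutral amino acids, averaged 66.6 ± 8.27 CPM in T166A and 45.7 ± 2.73 CPM in WT libraries, without overlap (log2 change 0.54, SE 0.07, edgeR adjusted p = 5.87e-06). Its heavy chain Slc3a2 went the other way, at 698 ± 24.3 CPM in T166A and 864 ± 55.2 CPM in WT libraries, also without overlap (log2 change -0.31, SE 0.05, edgeR adjusted p = 8.32e-05). Other ATF4 and CHOP targets and partners were split, with 2 higher and 4 lower of 13 tested and a median of -0.07, which became 0.02 without scaling. Ppp1r15a, which encodes the GADD34 subunit that reverses eIF2 phosphorylation, averaged 318 ± 20.1 CPM in T166A and 479 ± 32.5 CPM in WT libraries (log2 change -0.59, SE 0.05, edgeR adjusted p = 5.83e-08). Atf3, a stress-induced partner of this factor family, averaged 405 ± 17.7 CPM in T166A and 592 ± 57.7 CPM in WT libraries (log2 change -0.55, SE 0.06, edgeR adjusted p = 5.45e-07). With the digestion score in the model Ppp1r15a still passed, and Atf3 did not (log2 change -0.37, SE 0.14, edgeR adjusted p = 0.136).

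Among stress sensors and translation control genes, 4 of 19 were higher and 4 lower, with a median of 0.11. Ern1, which encodes IRE1, averaged 211 ± 11.5 CPM in T166A and 286 ± 22.9 CPM in WT libraries (log2 change -0.44, SE 0.06, edgeR adjusted p = 3.58e-06). Impact, an inhibitor of GCN2 activation, ranged over 99.1 to 120 CPM in T166A and 152 to 189 CPM in WT libraries (log2 change -0.53, SE 0.06, edgeR adjusted p = 5.44e-07). Without scaling, 8 of these genes were higher and 2 lower. Of 17 endoplasmic reticulum chaperones and folding enzymes, the relatives of Hspa5, 0 were higher and 3 lower at an unadjusted edgeR p under 0.05. Over all genes, 5704 of 15473 stood under that limit. After adjustment 0 were higher and 1 lower, with a median of -0.05 that became 0.04 without scaling. The one that fell, Dnajb9, a BiP cochaperone, averaged 100 ± 10.6 CPM in T166A and 130 ± 12.3 CPM in WT libraries (log2 change -0.37, SE 0.07, edgeR adjusted p = 0.00056), and the next by p, Creld2, did not pass (log2 change -0.19, SE 0.08, edgeR adjusted p = 0.0707).

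Genes of degradation and translocation at the endoplasmic reticulum were higher for 3 of 26 and lower for 0, beside 12.7% and 13.2% of all genes. At an unadjusted edgeR p under 0.05, 6 were higher and 1 lower, where 5704 of all 15473 genes stood. The median was 0.03, and 10 were higher without scaling. Sec24d, a coat protein of vesicles leaving the endoplasmic reticulum, changed by 0.19 on the log2 scale (SE 0.05, edgeR adjusted p = 0.00974), and Vcp, the ATPase that extracts proteins for degradation, one of 0.21 (SE 0.06, edgeR adjusted p = 0.012). Amino acid sensing genes upstream of mTORC1 were higher for 3 and lower for 4 of 16. Flcn, the folliculin subunit that acts on Rag GTPases, averaged 100 ± 7.51 CPM in T166A and 139 ± 8.41 CPM in WT libraries (log2 change -0.47, SE 0.06, edgeR adjusted p = 1.8e-06). Rragc, one of those GTPases, averaged 179 ± 9.02 CPM in T166A and 232 ± 8.39 CPM in WT libraries (log2 change -0.37, SE 0.05, edgeR adjusted p = 3.89e-06).

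**Figure D2:**
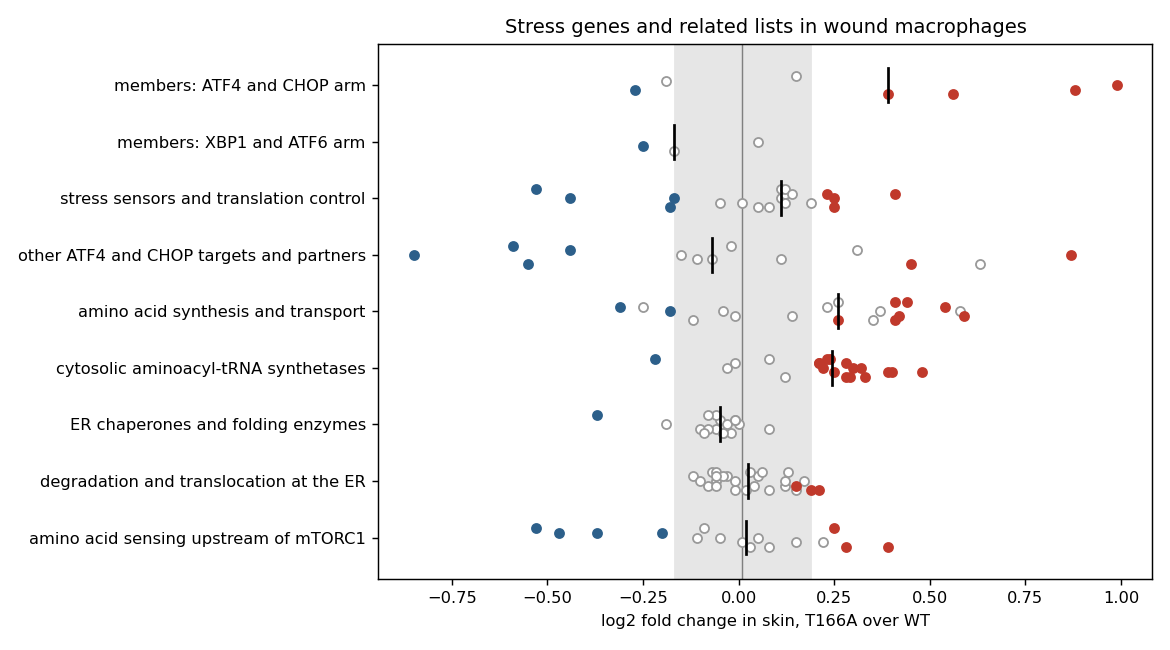
Log2 fold change in skin, T166A over WT (x axis), of every tested gene of the stress genes and 7 related lists (rows); red points passed as higher, blue as lower, open points did not pass, black bars are list medians, the grey line is the median of all genes tested and the grey band their middle quartiles. Most tRNA synthetases (15 of 20) lie to the right as red points, while 16 of 17 chaperones are open points near 0.

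Within a genotype, the members varied together only in part. With genotype means removed, the 45 pairs of members had a median Pearson r of 0.29 over the 12 skin libraries, between -0.28 and 0.84, and 33 were positive. The medians were 0.29 for the 21 pairs within the ATF4 and CHOP arm, 0.29 for the 3 pairs within the XBP1 and ATF6 arm and 0.29 for the 21 pairs across them. The closest pair was Atf4 and Hspa5 (r = 0.84), the members that both fell, followed by Ddit3 and Ddit4 (r = 0.79) and Asns and Sesn2 (r = 0.72). These values were taken on log2 CPM without TMM scaling and share libraries and cell makeup. No value over pairs of all genes was computed to set beside them. Library depth correlated with the members at between -0.54 (Asns) and 0.54 (Trib3), and its part was not tested. Over the same libraries, neutrophil marker scores correlated with Atf4 at 0.66 and with Hspa5 at 0.69, macrophage scores with Asns at -0.78 and fibroblast scores with Ddit4 at -0.78. Neutrophil markers were lower in T166A skin for 3 of 7 tested and summed to 155 to 258 CPM in T166A and 257 to 299 CPM in WT libraries, and their part in these values was not tested. Among 10207 genes ranked, those most like the mean of the 7 ATF4 and CHOP arm members were 2410002F23Rik (r = 0.94), Dcaf15 (0.91), Firre (0.91), Ppp1r12c (0.91) and Agap1 (0.90), over 12 libraries.

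**Figure D3:**
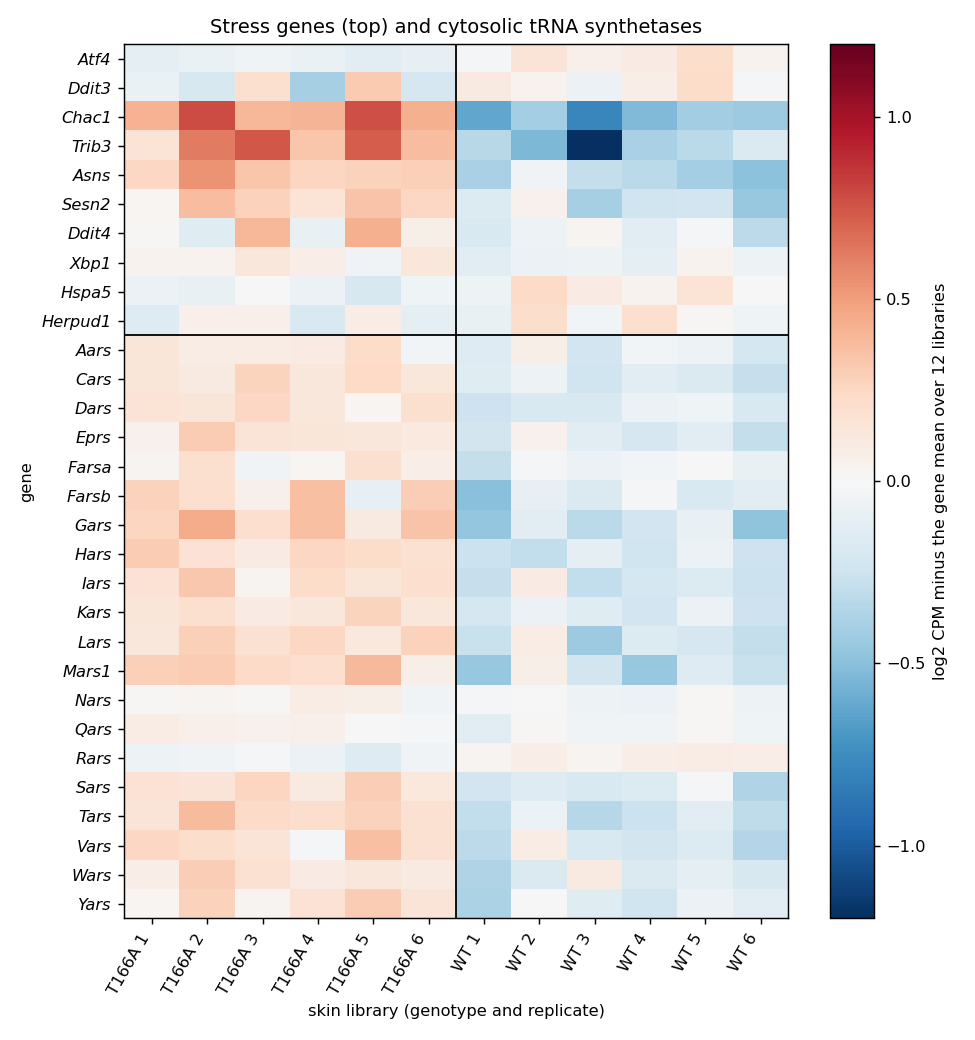
Log2 CPM minus the gene's mean over 12 libraries (colour, red above and blue below the mean) for the 10 stress genes (top rows) and 20 cytosolic tRNA synthetases (bottom rows) in the T166A (left 6 columns) and WT (right 6 columns) skin libraries. Chac1, Trib3 and Asns are red across T166A and blue or near white across WT columns, Atf4 and Hspa5 are mostly the reverse, and 15 of 20 synthetases passed as higher in T166A.

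In cultured macrophages none of the members passed, in a fit that could miss changes of the size seen in skin. Of genes simulated with a true log2 change of 1, 51% passed in the BMDM fit and 93% in the skin fit. At a true log2 change of 0.5 the shares were 3.03% and 64%. Only a small set of well-counted genes was changed there, all others were left unchanged, and no batch effect was set. In skin far more genes passed than were changed there, which alters the adjustment, so the shares hold for the simulated setting only. Chac1 in BMDM lay below the simulated counts. Of 9 members tested in BMDM, 0 passed by edgeR, DESeq2 or limma-voom, beside 0.0685%, 3.04% and 1.35% of all genes tested in that order, and 1 (Sesn2) had an unadjusted edgeR p under 0.05, beside 12.8% of all genes. Chac1 did not reach the minimum count: it had 6, 4 and 39 counts in T166A replicates 1, 2 and 3 and 12, 0 and 4 counts in the WT replicates. The count of 0 allows up to 0.0714 CPM at 3 counts, a limit that covers counting error only. The 39 counts came from T166A replicate 3, the library that also had 412 CPM of summed fibroblast markers, against 7.5 and 11.4 CPM in the other T166A libraries and 4.47 to 45.7 CPM in WT libraries, and their part in these values was not tested.

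Trib3 had 3.04, 3.01 and 4.62 CPM in T166A and 4.97, 5.5 and 3.4 CPM in WT BMDM replicates 1, 2 and 3. Both T166A libraries of batch B1 lay below their WT counterparts and that of batch B2 above (log2 difference -0.78 in B1 and 0.54 in B2). Differences per batch, here and below, are of log2 CPM without TMM scaling, unlike the levels. In B2 the scaling factors were 1.032 for the T166A and 0.9602 for the WT library, so scaling lowers each B2 difference. Asns split in the same way, at 5.2, 5.9 and 17.5 CPM in T166A and 6.99, 13.4 and 7.3 CPM in WT libraries (-0.80 in B1 and 1.35 in B2). Ddit4, the gene of these 3 with the widest range as a ratio, had 1.71, 2.07 and 8.67 CPM in T166A and 11, 1.45 and 3.46 CPM in WT libraries, the highest being WT replicate 1 (-1.08 in B1 and 1.42 in B2). For these 3 genes the direction turned between the batches, and B2 held 1 library per genotype. Smaller differences without scaling also changed sign for Hspa5 (-0.05 in B1 and 0.12 in B2), Herpud1 (-0.19 and 0.05) and Atf4, so the turn was not particular to these 3. With scaling, Herpud1 in B2 was lower in T166A (47.1 CPM) than in WT (49 CPM). The T166A library of B2 was also that with 412 CPM of summed fibroblast markers, against 5.17 CPM in the WT library of B2. The part of other cells in this turn was not tested. Atf4 had 102, 117 and 153 CPM in T166A and 128, 155 and 150 CPM in WT libraries, so that its scaled levels were close in B2. Its differences without scaling were -0.37 in B1 and 0.12 in B2.

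Sesn2 was higher in T166A in batch B1 and nearly equal in B2. It had 32.4, 23.3 and 10.5 CPM in T166A and 17.4, 11.8 and 10.4 CPM in WT BMDM replicates 1, 2 and 3. Its log2 differences without TMM scaling were 0.93 in B1 and 0.12 in B2. The ranges overlapped, and the difference failed the adjustment (log2 change 0.64, SE 0.25, edgeR unadjusted p = 0.0334, adjusted p = 0.359). Xbp1 was the single member whose libraries did not overlap, beside 13.7% of all genes tested, at 204, 203 and 203 CPM in T166A and 204, 239 and 227 CPM in WT libraries, where WT replicate 1 differed from T166A replicate 1 by less than the rounding. It did not pass (log2 change -0.13, SE 0.12, edgeR adjusted p = 0.666). Hspa5 had 479, 530 and 550 CPM in T166A and 466, 582 and 542 CPM in WT libraries, with no clear order (log2 change -0.03, SE 0.13, edgeR adjusted p = 0.946). Ddit3 had a log2 change of -0.26 (SE 0.13, edgeR adjusted p = 0.47) and Herpud1 one of -0.15 (SE 0.15, edgeR adjusted p = 0.703).

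**Figure D4:**
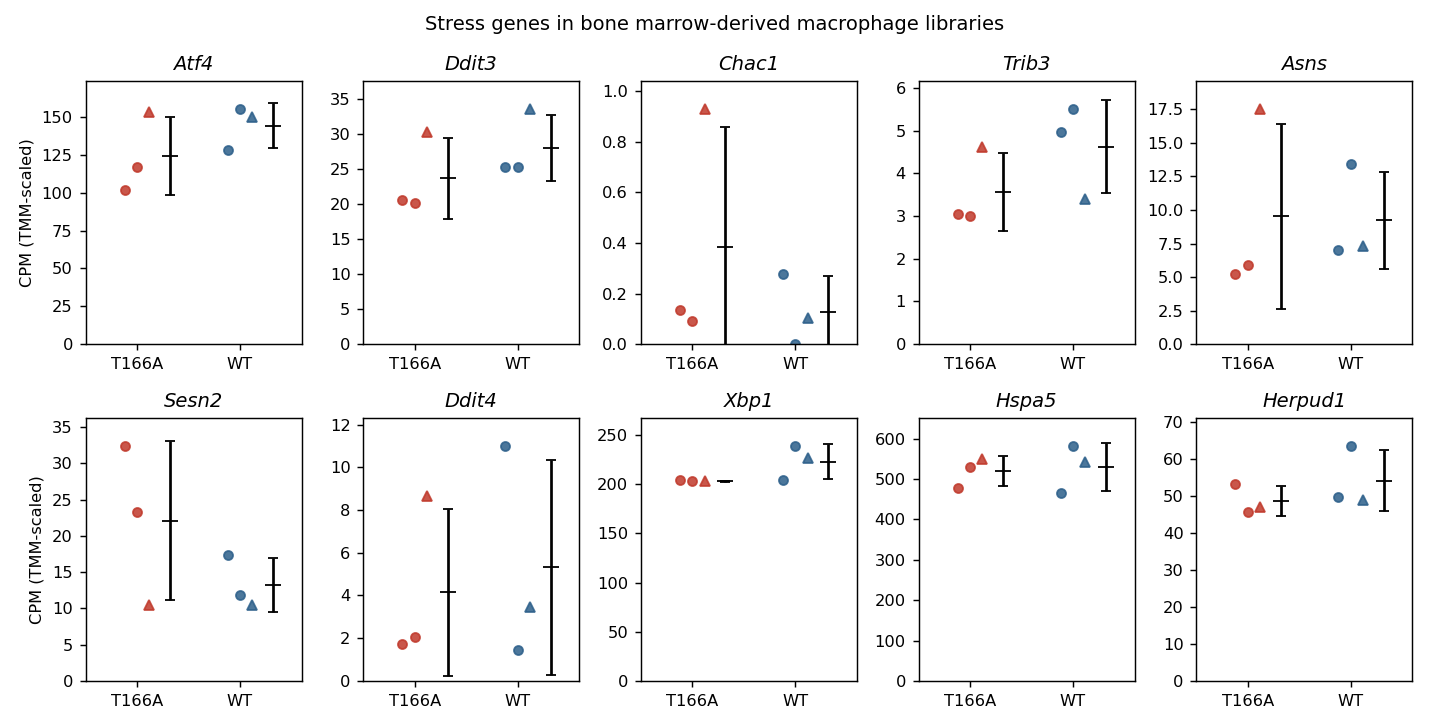
Level of each of the 10 genes (y axis, TMM-scaled CPM from 0) in 3 T166A (red, left) and 3 WT (blue, right) BMDM libraries; circles are batch B1, triangles batch B2, and the black mark and bar are the mean and SD, with bars cut off at 0. The B2 triangle of T166A is the highest of its group for Asns (17.5 CPM), Ddit4 (8.67 CPM) and Chac1 (0.928 CPM). It is also the highest for Atf4 (153 CPM), Ddit3 (30.4 CPM), Trib3 (4.62 CPM) and Hspa5 (550 CPM), and not for Sesn2, Xbp1 and Herpud1.

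Of 125 genes of the related lists tested in BMDM, 0 passed by edgeR (22 at an unadjusted p under 0.05, where 12.8% of all genes stood). DESeq2 passed 6 (Eif2ak2, Cebpb, Manf, Sdf2l1, Eprs and Atf3), beside 3.04% of all genes, and limma-voom 1 (Eif2ak2), beside 1.35%. The lowest edgeR p values belonged to Eif2ak2, the interferon-induced kinase PKR that also phosphorylates eIF2, at 27.6 ± 5.2 CPM in T166A and 14.9 ± 1.69 CPM in WT libraries (log2 change 0.88, SE 0.18, edgeR adjusted p = 0.168), and Cebpb, a partner of ATF4, at 247 ± 39.1 CPM in T166A and 346 ± 58.9 CPM in WT libraries (-0.49, SE 0.13, edgeR adjusted p = 0.212). The secreted folding factor Manf averaged 63.3 ± 14.5 CPM in T166A and 89 ± 8.88 CPM in WT libraries (-0.51, SE 0.14, edgeR adjusted p = 0.23). The other genes taken by the naming rule in BMDM (Sdf2l1, Eprs, Atf3, Mthfd2, Hars, Atf6, Sec61b, Edem3, Slc1a5, Nprl2 and Rragd) had edgeR adjusted p values of 0.234 to 0.488. The 20 tRNA synthetases had a median log2 fold change of -0.05 in BMDM, beside -0.02 over all genes.

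The difference between the genotype effects of both sources was tested in 1 model over 18 libraries. That model used 1 spread per gene for both sources, although the biological coefficient of variation was 0.279 in the BMDM and 0.133 in the skin fit. Its SEs may thus be too small, and that of Trib3 was below the SE of Trib3 in BMDM alone. Trib3 was the single member that passed, beside 14.3% of all genes tested: its T166A effect was higher in skin than in BMDM by 1.31 on the log2 scale (SE 0.32, edgeR adjusted p = 0.00968). Its own effects were 0.88 in skin and -0.39 (SE 0.33, edgeR adjusted p = 0.653) in BMDM. For Asns the difference of 0.76 (SE 0.39, edgeR adjusted p = 0.2) did not pass. It was 1.51 (SE 0.23, edgeR adjusted p = 0.000134) with BMDM T166A replicate 3 or BMDM WT replicate 3 left out. These are 1 case, because the batch term then fits the other library of B2 exactly and batch B1 alone remains. Chac1 failed the count filter in BMDM and entered this model through its skin counts, so its difference of -0.26 (SE 0.64) is a description and no test. That value was -2.30 (SE 0.54) without BMDM WT replicate 1, which held 12 of the 16 counts in WT BMDM, so it rests on very few counts. For Atf4, Ddit3, Sesn2, Ddit4, Xbp1, Hspa5 and Herpud1 the difference did not pass, so an effect that passed in skin alone is not shown to differ from that in BMDM.

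**Figure D5:**
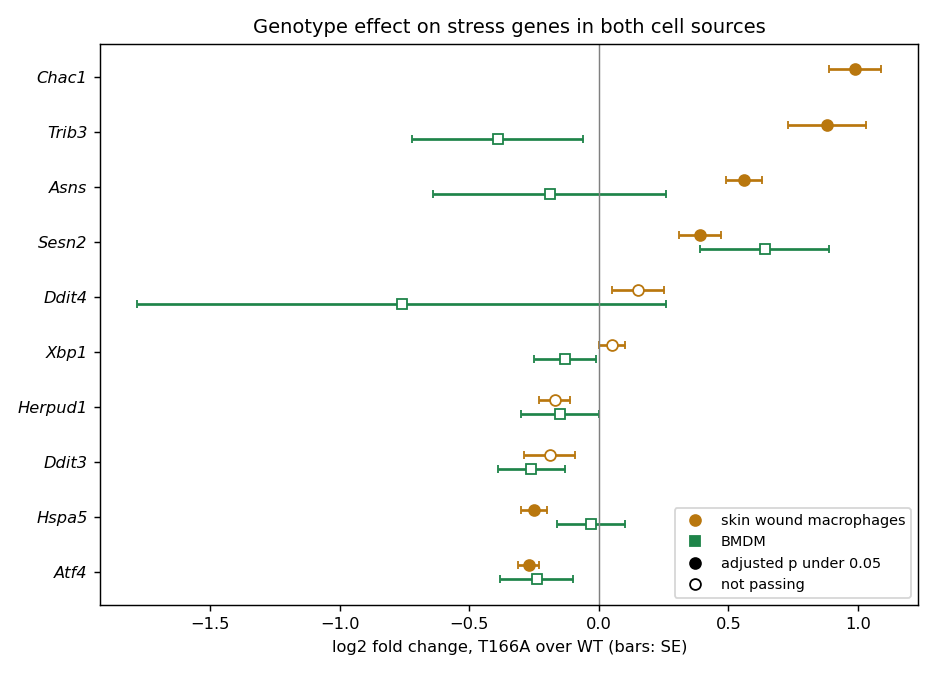
Log2 fold change, T166A over WT (x axis, bars are SE), of each stress gene in skin wound macrophages (circles) and BMDM (squares); filled symbols passed at an adjusted p under 0.05. Chac1 (0.99), Trib3, Asns and Sesn2 are filled to the right and Hspa5 and Atf4 (-0.27) to the left in skin, no BMDM symbol is filled, and Chac1 was not tested in BMDM.

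Members also differed in level between the 2 sources, whose tables were scaled separately. Every skin library lay above every BMDM library for Chac1, Ddit4, Hspa5, Asns and Atf4, and below for Xbp1. The share of all genes that separate the sources in this way was not computed, so this is not shown to be particular to the members. In WT libraries Ddit4 averaged 243 ± 17.9 CPM in skin and 5.31 ± 5.04 CPM in BMDM, Hspa5 2183 ± 121 CPM in skin and 530 ± 59.1 CPM in BMDM, and Xbp1 162 ± 5.84 CPM in skin and 223 ± 17.5 CPM in BMDM. Ddit3, Trib3, Sesn2 and Herpud1 overlapped. Skin libraries also held the digestion response genes at 5087 to 8022 CPM, against 726 to 887 CPM in BMDM, and the part of tissue handling in these level differences was not tested.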

How the data were processed

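RNA sequencing of 18 libraries was analysed from whole-number counts per RefSeq transcript, deposited by the authors in 1 table per cell source. Per the submitters' processing notes, the authors used HISAT2 2.2.1, FastQC 0.12.1, cutadapt 4.4 and a featureCounts version that is not named, with mm10. The strand setting and the handling of shared reads were not given in the sources used here. Groups, replicate numbers and batches came from the labels. The members and lists were chosen with earlier results of these data known.

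Transcript rows (45895 in BMDM and 45843 in skin) were matched to genes through RefSeq (45749 and 45697) or GENCODE (29 in each). The 117 unmatched rows in each table (0.514% and 0.187% of counts) were left out. The row with the highest summed CPM stood for each gene. Positions are on GRCm38. edgeR 4.0.16 in R 4.3.3 (TMM, filterByExpr at a count of 10 and a total of 15, robust quasi-likelihood F test, Benjamini-Hochberg adjustment over all genes, threshold 0.05) was fitted with batch and genotype in BMDM (13139 genes), genotype in skin (15473) and group with BMDM batch over both (16586). SE was the log2 fold change divided by the square root of F. Scripts were tested on simulated data. Covariate scores were mean log2 CPM of marker lists with a prior count of 2.

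Besides all members, the text names the 2 genes with the smallest p per related list and source, the 5 genes nearest to the mean of the ATF4 and CHOP arm, and the most abundant marker per list. Alternatives were RLE, no filter, a filter at 1 CPM, DESeq2 1.42.0, limma-voom (limma 3.58.1), a replicate block, removal of the length trend, summed transcript rows, no batch term, batch B1 alone, marker scores as covariates, each library left out in turn, and, chosen after seeing the data, no scaling factor. After group means were removed, same-numbered T166A and WT libraries correlated at 0.201, 0.115 and 0.188 in BMDM, where numbers follow the labelled batches. The main BMDM fit held batch and no pairs, and the replicate block was an alternative only. With batch means removed too, the values were -0.182 and -0.0808 in B1 and -1 in B2. With so few libraries per batch, removing these means itself pushes the values below 0, so pairing beyond batch could not be judged. In skin the values were -0.0459 to 0.0906 and numbers were not taken as pairs. No 2 libraries were duplicates.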

Additional observations from a re-analysis of the deposited data

Results flagged for a closer look

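Among the 20 groups of 6 skin libraries checked, the highest or lowest library stood apart in 1. Atf4 in T166A skin had its highest library, replicate 3, at 307 CPM, with the nearest other at 295 CPM, a gap of 0.647 of the group's range, beyond Dixon's 95% critical value for 6 samples. Chance gives such a gap in about 1 of 20 groups, and this library still lay below every WT library (337 CPM and above).

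Trib3 stood out because its genotype effect differed between the cell sources, by 1.31 on the log2 scale (skin minus BMDM, SE 0.32, edgeR adjusted p = 0.00968). It passed in all 23 alternatives, at adjusted p values of 0.000532 to 0.0412. Marker scores were not among them, and all of them used 1 spread per gene for both sources. In skin alone Trib3 had a log2 fold change of 0.39 with the adipocyte score (edgeR adjusted p = 0.748) and 0.93 with the digestion score (edgeR adjusted p = 0.168). The BMDM difference in log2 CPM without TMM scaling was -0.78 in batch B1 and 0.54 in batch B2.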

How the results depend on the processing

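In skin, 6 members passed, and 0 with the adipocyte and 1 with the tissue digestion score as covariate. Leaving out each library gave 6 to 8. The 6 called members kept their direction in all 26 alternatives and lost their calls in none but the covariate fits. Chac1 lost its call with the adipocyte score (adjusted p = 0.154). Atf4, Trib3 and Hspa5 lost theirs with the adipocyte or digestion score (adjusted p of 0.168 to 0.748). Asns and Sesn2 did so with the macrophage score too (0.0979 to 0.504). Herpud1 passed in 7 of 26 alternatives and Ddit3 in 3. In the related lists 50 genes passed in skin, and 5, 12 and 13 with the adipocyte, digestion and macrophage scores, where calls over all 15473 genes were 629, 1006 and 906 instead of 4011, or 44 to 54 with a library left out. Without scaling these lists had 51 higher and 12 lower, beside 34 and 16. Vcp changed to -0.01 with the digestion score, and the cause was not tested. In BMDM 0 members passed in every alternative, also with a library left out. Of the related genes, 1 passed without a filter, 6 with DESeq2 and 1 with limma-voom, against 0 otherwise. The replicate block, which pairs BMDM libraries, left 0 members called there, and in skin, where only numbers are shared, 7 passed (Herpud1 added, adjusted p = 0.0456). For the difference between sources 1 member passed, and 1 to 2 with a library left out. It was 2 without BMDM WT replicate 1, where the added member was Chac1, which failed the count filter in BMDM and is thus not read as a result. It was also 2 without BMDM T166A replicate 3 or WT replicate 3, which both leave batch B1 alone. RLE factors gave 764 genes with a higher and 1626 with a lower skin effect, beside 1022 and 1348. Summing transcript rows kept 6 of 10 members at their place in the order of levels in T166A skin. The 2 rows of Atf4, Ddit3, Xbp1, Hspa5 and Herpud1 held nearly the same counts, at most 24 apart in a library. Summing thus counted these members again and the single-row members not, so the moved places are no evidence on the order.
Depth limits Chac1 in BMDM, where 39 counts was the most in a library. In BMDM, batch B2 holds 1 library per genotype.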
